A study of Mus musculus with 23 samples.

Results

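The EGF receptor family joins 4 receptor tyrosine kinases, Egfr, Erbb2, Erbb3 and Erbb4, with the growth factors that bind them. Hbegf (heparin-binding EGF-like growth factor), Tgfa (transforming growth factor alpha) and Areg (amphiregulin) are ligands of Egfr, and Hbegf also binds Erbb4. The neuregulins Nrg1 and Nrg2 bind Erbb3 and Erbb4, and Nrg3 binds Erbb4. Most of these ligands are made as precursors anchored in the membrane and are released by metalloproteases. A bound receptor pairs with a second receptor and signals to the MAP kinase and PI3 kinase pathways. Erbb2 has no known ligand and serves as a partner, while Erbb3 has little kinase activity of its own. In the hippocampus, Erbb4 is best known from inhibitory interneurons and Egfr from glia and progenitor cells. All 10 genes were found by their Ensembl identifiers among the 55487 gene identifiers counted. The set was chosen by the level of Hbegf, which stood higher in the axonal than in the soma libraries of stretched cultures, and that difference is described here with no test. The other 9 genes belong to the family by name and function.

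RNA had been sequenced from hippocampal neurons of C57Bl/6 mouse pups at postnatal day 1, grown in microfluidic chambers whose channels let axons pass into a compartment of their own. Every culture, controls included, had magnetic nanoparticles (MNPs) in the medium at 5 µg/ml. Stretched cultures were kept in a magnetic gradient of 50 T/m, which pulls on the particles, between DIV 1 and DIV 6 (DIV, days in vitro), and control cultures in a null gradient. The axonal libraries numbered 5 from control and 6 from stretched cultures, and the soma libraries 6 from each. The axonal samples were labelled as pure axonal material, while the soma samples are called soma in their titles, total culture in another label and somatodendritic in the protocol. The labels do not say whether libraries came from separate cultures or animals, so the p-values below measure only the spread between these libraries, which may be technical.

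The promoters of a pair of ligands are shown because Tgfa was the ligand with the larger rise in stretched somata and Areg, a ligand of the same receptor, was near the limit of detection. Promoter windows were found for 6 of the 10 genes. The 250 bases before each gene's start are given 5′ to 3′ from RefSeq (GRCm38.p6), both on the plus strand, with matches to the motifs searched in capitals. The Tgfa window is chr6:86194972-86195221 and the Areg window is chr5:91139349-91139598.
Tgfa: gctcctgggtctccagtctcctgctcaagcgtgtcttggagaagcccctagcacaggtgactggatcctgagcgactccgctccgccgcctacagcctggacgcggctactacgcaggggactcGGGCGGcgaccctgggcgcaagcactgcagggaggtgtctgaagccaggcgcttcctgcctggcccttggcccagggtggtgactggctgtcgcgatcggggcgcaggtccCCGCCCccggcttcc
Areg: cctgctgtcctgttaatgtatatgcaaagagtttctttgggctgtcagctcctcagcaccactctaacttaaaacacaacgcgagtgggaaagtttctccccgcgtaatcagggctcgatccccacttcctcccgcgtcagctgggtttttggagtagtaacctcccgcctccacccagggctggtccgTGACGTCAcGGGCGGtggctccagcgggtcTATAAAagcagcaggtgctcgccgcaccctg
Both strands were searched for 4 motifs. The TATA box, a start site element of some promoters, was searched as TATAAA. The cAMP response element (CRE), bound by CREB proteins, was searched as TGACGTCA. The AP-1 site, bound by Fos and Jun proteins, was searched as TGACTCA. The GC box, bound by Sp factors, was searched as GGGCGG. Tgfa held GC boxes from 126 to 121 and from 15 to 10 bases before the start, the second on the minus strand. Areg held a CRE from 61 to 54, a GC box from 52 to 47 and a TATA box from 31 to 26 bases before the start. Of 32851 promoter windows of this length, 32.7% held a GC box, 12.4% a TATA box, 4.46% an AP-1 site and 1.55% a CRE. The GC content was 69.2% for Tgfa and 57.2% for Areg, beside a median of 52.4% over all windows. A match is a description of the letters, and none of the assays here measured binding.

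Levels are given as counts per 1000000 gene counts of the library (CPM). Libraries held 16369153 to 43048953 gene counts, so that 3 counts, the limit that a count of 0 allows, lay between 0.0697 and 0.183 CPM. The cDNA was amplified, and intervals and limits therefore cover only counting error. Axonal libraries held far fewer genes (4263 to 10242 with at least 1 count) than soma libraries (22452 to 24575). Summed neuronal markers (9 genes) were lower in every axonal library (2604 to 5615 CPM) than in every soma library (6570 to 8663 CPM). Despite their label, all axonal libraries also held astrocyte markers (8 genes, summed 4651 to 25629 CPM, beside 5120 to 14076 CPM in somata). They held somatodendritic or nuclear transcripts as well (6 genes, summed 1029 to 3277 CPM, beside 1917 to 3302 CPM in somata). Of 9 oligodendrocyte-lineage markers, 8 had reads in each soma group (summed 105 to 195 CPM) and 5 in each axonal group (summed 0.0611 to 438 CPM), with Sox10 at 0 in every library.

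In somata all 10 genes had reads in all 12 libraries, and the ligands Hbegf, Tgfa and Nrg1 stood above the rest of the family. Levels were compared between genes as CPM per kilobase of exon, over the 12 soma libraries of both conditions. Hbegf was highest with 6.16 ± 2.38 CPM per kilobase (SD, n = 12), followed by Tgfa with 4.00 ± 0.99 and Nrg1 with 3.69 ± 0.78. Nrg3 followed with 0.889 ± 0.232, Erbb2 with 0.761 ± 0.404, Areg with 0.650 ± 0.435 and Egfr with 0.565 ± 0.138 CPM per kilobase. The lowest were Erbb4 with 0.332 ± 0.097, Erbb3 with 0.122 ± 0.060 and Nrg2 with 0.0969 ± 0.0421 CPM per kilobase. In this order only Nrg1 (2.50 to 5.14) and Nrg3 (0.521 to 1.28) were neighbours whose ranges did not overlap. The receptors thus all lay below the lowest value of the 3 leading ligands, on this scale. Because bulk RNA was measured, fewer cells of a type and less RNA per cell cannot be told apart.

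**Figure D1:**
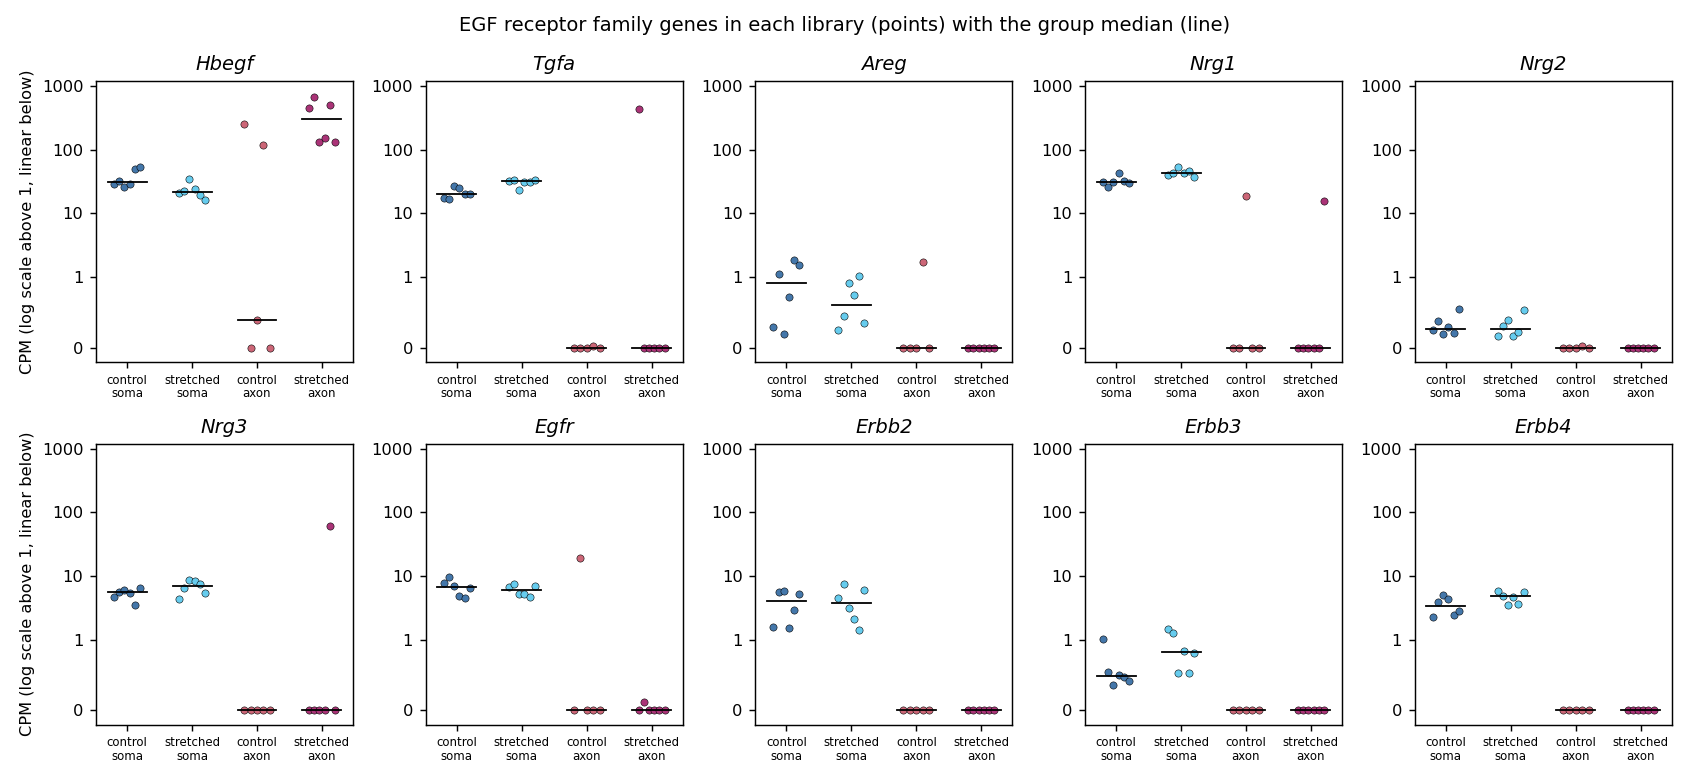
CPM of each of the 10 genes in every library (points; log scale above 1, linear below) with the group median (line), for 6 control soma, 6 stretched soma, 5 control axon and 6 stretched axon libraries. Hbegf fills all 6 stretched axon libraries, while the other 9 genes are at 0 in most or all axonal libraries.

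Hbegf (chr18:36504927-36515805, minus strand, GRCm38) was the only gene of the family with reads in most axonal libraries. In control axons its level was 250 CPM in replicate 1, 0 in replicate 2, 0.397 in replicate 3, 117 in replicate 5 and 0 in replicate 7. In stretched axons it ranged from 133 to 684 CPM with a median of 300.4, on 2637 to 11707 counts. Control axon libraries were thus either high or at most 9 counts, and the stretched ones were all high. Control somata ranged from 25.6 to 53.0 CPM with a median of 30.9, and stretched somata from 16.2 to 34.6 CPM with a median of 21.6.

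In stretched cultures all 6 axonal libraries lay above all 6 soma libraries for Hbegf. The mean was 344 ± 236 CPM (SD, n = 6) in axons and 23.02 ± 6.33 CPM (SD, n = 6) in somata, a ratio of 14.9. The same separation, axon above soma, was seen for 1.35% of the 14466 genes tested across these libraries, and the opposite one for 34.6%. This contrast was used to choose the genes, so no test of a family member is given in it. The edgeR fit across all genes called 29.3% of them, 0.843% higher and 28.4% lower in axons.

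The control cultures allow a test of Hbegf in libraries other than those that chose it, if the choice rested on the soma libraries of stretched cultures alone. Hbegf averaged 73.5 ± 111 CPM (SD, n = 5) in control axons and 36.6 ± 11.9 CPM (SD, n = 6) in control somata. The difference was much smaller than the spread between axonal libraries: the log2 fold change was 0.74 (SE 1.91, adjusted p = 0.90, edgeR quasi-likelihood test). Its 95% interval ran from 0.126-fold to 22.3-fold. The sign rested on replicate 1, without which the log2 fold change was -0.36, and on the scale, since the mean of log2(CPM + 1) was lower in axons (a difference of -2.26, two-sided exact permutation test, p = 0.17). At this spread no difference of Hbegf between compartments was detected in control cultures, and the interval spans large differences in either direction.

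**Figure D2:**
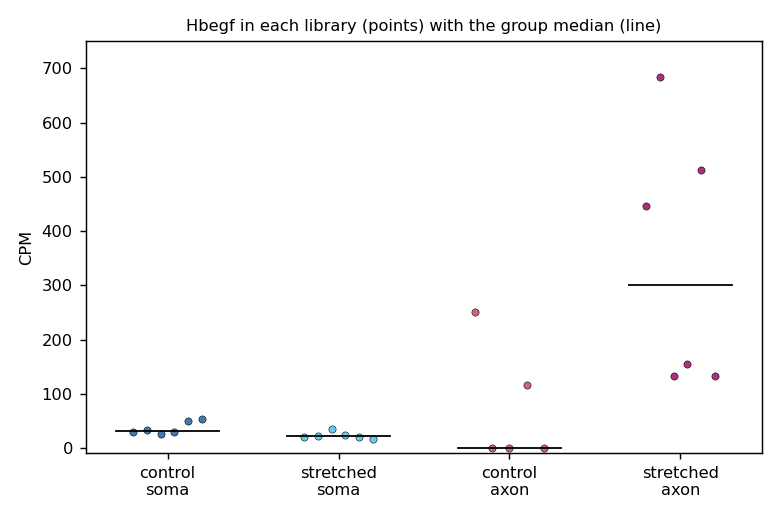
Hbegf in every library, in CPM on a linear axis, with the group median as a line. The 6 stretched axon libraries (133 to 684 CPM) lie above all soma libraries (16.2 to 53.0 CPM), and the 5 control axon libraries lie at 250, 117, 0.397, 0 and 0 CPM.

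The stretched and control axonal libraries overlapped for Hbegf. Of the 6 stretched axon libraries, 3 lay above the highest control library (250 CPM), and the other 3, between 133 and 154 CPM, lay between the control libraries at 117 and 250 CPM. The means were 344 and 73.5 CPM, a ratio of 4.69. The fitted log2 fold change was 2.12, with 1.79 to 3.25 when 1 library was left out (3.25 without control axon replicate 1), and 5.11 on the log2(CPM + 1) scale. The stretched axon libraries took part in the choice of Hbegf, so no test is given. No other member passed the filter on low counts in axons. Among all 4947 genes tested for stretch in axons, 0 were called by edgeR (0% higher, 0% lower; 46 had an unadjusted p under 0.05), 18 by DESeq2 and 0 by the exact permutation test. Genes whose groups did not overlap made up 0.101% (higher) and 0.222% (lower) of those tested.

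The number of genes read in an axonal library can be set beside its Hbegf level. The control libraries with 250 CPM and with 0 CPM had 4867, 4952 and 5442 genes. Those with 0.397 and 117 CPM had 6029 and 10242. Among stretched axon libraries, replicate 1 had the fewest genes (4263, Hbegf at 446 CPM) and replicate 8 the most (10065, Hbegf at 133 CPM). A relation between the number of genes and the Hbegf level was not tested. Fibroblast and mural markers summed to 745, 1110, 0, 0, 257 and 612 CPM in stretched axon replicates 1, 2, 4, 5, 6 and 8. Hbegf stood at 446, 684, 134, 154, 513 and 133 CPM in these libraries, in the same order. In control axons the markers summed to 106 to 386 CPM, and Vtn was at 0 in both axonal groups. All 8 astrocyte markers had reads in some library of each axonal group, and 5 of 5 endothelial markers were at 0 in stretched axons. Microglial markers summed to 245 CPM in stretched replicate 8, 44.0 CPM in stretched replicate 2 and at most 0.0381 CPM in the other stretched axon libraries. In control axons they summed to 199 CPM in replicate 2 and to 0 elsewhere. The part of astrocyte, fibroblast or microglial RNA in the Hbegf level was not tested.

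The detection of Hbegf in axons can be set beside that of genes of like level in somata. Of 2988 genes with a mean of 20 to 50 CPM in somata, 3.41% (102 genes) had reads in all 6 stretched axon libraries, as Hbegf did. Those libraries took part in the choice of Hbegf, which favoured its detection there, so nothing is drawn from that share. In the control axon libraries 28.0% of these genes had reads in at least 3 of 5, as Hbegf did. The 3 leading ligands all lie in this range. Tgfa and Nrg1 each had reads in 2 of the 11 axonal libraries, and 25% of the genes in the range had reads in at most 2.

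Reads of the other ligands in axons came from scattered libraries. Tgfa had 11502 counts (439 CPM) in stretched axon replicate 1 and 1 count in control axon replicate 5, with none in the other 9 axonal libraries. Nrg1 had 18.5 CPM in control axon replicate 3 and 15.5 CPM in stretched axon replicate 8, and none elsewhere in axons. Nrg3 had 61.0 CPM (1171 counts) in stretched axon replicate 6 alone. Areg had 1.70 CPM (73 counts) and Nrg2 1 count, both in control axon replicate 5, the axonal library with the most counts and genes. No ligand besides Hbegf was read in more than 1 library of either axonal group.

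Among the receptors, Egfr had 19.5 CPM (390 counts) in control axon replicate 2 and 2 counts in stretched axon replicate 2. Erbb2, Erbb3 and Erbb4 had no read in any of the 11 axonal libraries. In somata Nrg3, Egfr, Erbb2 and Erbb4 averaged between 1 and 10 CPM, a range in which 34.2% of 4387 genes had no axonal read and 78.7% had reads in at most 2 axonal libraries. Areg, Nrg2 and Erbb3 averaged between 0.1 and 1 CPM, a range in which 70.2% of 5872 genes had no axonal read. Few or no axonal reads were thus common among genes of like level in somata.

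In control cultures Tgfa, Nrg3, Erbb2 and Erbb4 had 0 or 1 count over all 5 axonal libraries and were read in all 6 soma libraries. Across all genes the edgeR test is the background, in which 35.3% of the 14728 genes tested were called, 0.856% higher and 34.4% lower in axons. Of the 10 members 8 passed the filter on low counts (not Erbb3 and Nrg2). Tgfa, Nrg3, Erbb2 and Erbb4 passed it only through the somata and so had to differ, and their levels are given with no p. The median log2 fold change of all genes tested was -1.40, and -1.27 when scaled to total counts alone. Groups did not overlap for 40.6% (lower) and 0.978% (higher) of the genes.

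Tgfa averaged 20.9 ± 4.1 CPM (SD, n = 6) in control somata against 1 count in all 5 control axon libraries together. Pooled over libraries its level was 2756-fold lower in axons, with an exact Poisson 95% interval of 495-fold to 108847-fold for that count. Nrg3 averaged 5.32 ± 1.05 CPM in control somata and was at 0 in control axons, at least 41.9-fold lower against a limit of 3 counts per library. Erbb2 averaged 3.79 ± 2.00 CPM in control somata and was at least 29.8-fold lower in axons. Erbb4 averaged 3.47 ± 1.103 CPM in control somata and was at least 27.3-fold lower. Erbb3 averaged 0.554 ± 0.240 CPM in control somata and was at least 4.36-fold lower.

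For Nrg1, Egfr and Areg, 1 control axon library held all of the axonal reads, and edgeR called none of these genes. The log2 fold change of Nrg1 was -3.32 (SE 2.28), with its axonal reads in control replicate 3. For Egfr it was -1.23 (SE 1.92), with its axonal reads in replicate 2. For Areg it was -1.45 (SE 1.36, adjusted p = 0.60, edgeR), with its axonal reads in replicate 5. Without that library each gene was called lower, with no axonal count left, a call that the filter then makes. The exact permutation test across genes called Nrg1 lower. Nrg1 and Egfr, too, passed the filter on low counts through the somata alone. No p is therefore given for either gene, and nothing is drawn from these calls or from their absence.

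In stretched cultures, where values are described only, Erbb2, Erbb3 and Erbb4 were again without axonal reads. Erbb2 (4.14 ± 2.38 CPM in stretched somata, SD, n = 6) was at least 29.7-fold lower in stretched axons, Erbb4 (4.72 ± 0.98 CPM) at least 33.9-fold and Erbb3 (0.912 ± 0.387 CPM) at least 6.54-fold. Areg (0.625 ± 0.317 CPM) was at least 4.49-fold and Nrg2 (0.297 ± 0.145 CPM) at least 2.13-fold lower. Egfr averaged 6.03 ± 1.13 CPM in stretched somata and, pooled, was 406-fold lower in axons on 2 counts (exact Poisson 95% interval 112-fold to 3351-fold). Nrg1 averaged 44.0 ± 5.4 CPM in stretched somata, above each of the 6 axonal libraries. Tgfa and Nrg3 overlapped, each because of 1 axonal library above all somata.

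Within somata, the ligands Tgfa and Nrg1 were higher in stretched than in control cultures, and no receptor passed the test. This comparison asks how the pull on the particles went with RNA on the cell-body side. Of the 15632 genes tested, edgeR called 25.1%, 11.2% higher and 13.9% lower in stretched somata. Without control soma replicate 4 it called 6072 genes. Of the 10 family members 9 passed the filter on low counts, Nrg2 being the exception, and Hbegf is described without a test. Tgfa and Nrg1 were 2 of the 8 tested, a share near that background, so their number is no result about the family.

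Tgfa (chr6:86195223-86275719, plus strand, GRCm38) ranged from 16.6 to 26.7 CPM with a median of 20.0 in control somata, and from 23.7 to 33.9 CPM with a median of 31.8 in stretched somata. Of the 6 stretched libraries, 5 lay above every control library, and replicate 4 lay within their range. The log2 fold change was 0.52 (SE 0.13, adjusted p = 0.012, edgeR), or 1.44-fold with a 95% interval of 1.21-fold to 1.71-fold. Tgfa kept its call in all 12 fits that left out 1 library. Groups did not overlap for 1.84% of genes (higher) and 2.27% (lower) in this comparison.

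Nrg1 (chr8:31814551-32884029, minus strand, GRCm38), whose isoforms gene counts cannot tell apart, ranged from 25.9 to 43.8 CPM with a median of 31.1 in control somata. In stretched somata it ranged from 37.8 to 53.2 CPM with a median of 43.04. All stretched libraries lay above 5 of the 6 control libraries, and control replicate 4 lay within the stretched range. The log2 fold change was 0.40 (SE 0.12, adjusted p = 0.029, edgeR), or 1.32-fold with a 95% interval of 1.117-fold to 1.56-fold. Nrg1 lost its call in 5 of the 12 fits that left out 1 library, those without control soma replicate 1, 2, 3 or 6 or stretched soma replicate 6, with an adjusted p of at most 0.063 (edgeR).

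Both calls stood beside a relation of the fold changes to gene length. Across 15619 genes, which are not independent replicates, the log2 fold change had a Spearman rho of 0.41 with exon length. Among genes with 5000 to 8000 bases of exon, as Tgfa with 6490, 18.3% were called higher and the median log2 fold change was 0.12. Among those with over 8000, as Nrg1 with 10351, 22.3% were called higher and the median was 0.20. With offsets for length and GC content the log2 fold change of Tgfa was 0.42 (adjusted p = 0.024, edgeR) and that of Nrg1 was 0.16 (adjusted p = 0.27, edgeR), so the call of Nrg1 ended. By the exact permutation test neither passed: the two-sided p was 0.0065 for Tgfa and 0.011 for Nrg1, adjusted to 0.054 and 0.059, where 0.052 was the smallest value it reached for any gene.

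Hbegf in somata was lower in stretched libraries by its values. The stretched soma libraries took part in the choice of Hbegf, which favoured low values there, so no test is given. Of the 6 stretched libraries, 5 lay below the lowest control library (25.6 CPM), and replicate 4 (34.6 CPM) lay within the control range. The means were 23.02 ± 6.33 and 36.6 ± 11.9 CPM (SD, n = 6 each), a ratio of 0.630. Microglial markers (8 genes) also had lower sums in stretched somata (31.0 to 40.8 CPM) than in control somata (43.7 to 92.1 CPM). Of the 8, edgeR called 3 lower (Tyrobp, C1qa and C1qb), beside 13.9% of all genes, and 5 did not pass. Astrocyte sums overlapped (5354 to 11400 and 5120 to 14076 CPM). The part of glial RNA in the Hbegf or Tgfa levels was not tested.

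The remaining members did not pass in somata. Among ligands, the log2 fold change was -0.65 for Areg (SE 0.52, adjusted p = 0.37, edgeR) and 0.32 for Nrg3 (SE 0.20, adjusted p = 0.26, edgeR). Areg was on 6 to 43 counts a library. Among receptors it was 0.69 for Erbb3 on 10 to 35 counts (SE 0.36, adjusted p = 0.17, edgeR) and 0.40 for Erbb4 (SE 0.22, adjusted p = 0.19, edgeR). It was -0.21 for Egfr (SE 0.20, adjusted p = 0.46, edgeR) and 0.08 for Erbb2 (SE 0.42, adjusted p = 0.91, edgeR). The 95% intervals ran from 0.656-fold to 1.14-fold for Egfr, from 0.593-fold to 1.88-fold for Erbb2, from 0.984-fold to 2.63-fold for Erbb3 and from 0.975-fold to 1.79-fold for Erbb4. Inhibitory neuron markers, listed here because Erbb4 marks such cells, summed to 191 to 291 CPM in control and 235 to 324 CPM in stretched somata. Of these 7 genes, 2 (Gad1 and Slc32a1) were called higher and 0 lower. Of 9 neuronal markers, 2 were called higher and 5 lower in stretched somata. The shares of all genes were 11.2% higher and 13.9% lower. The part of these cell types in the levels of the family was not tested.

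**Figure D3:**
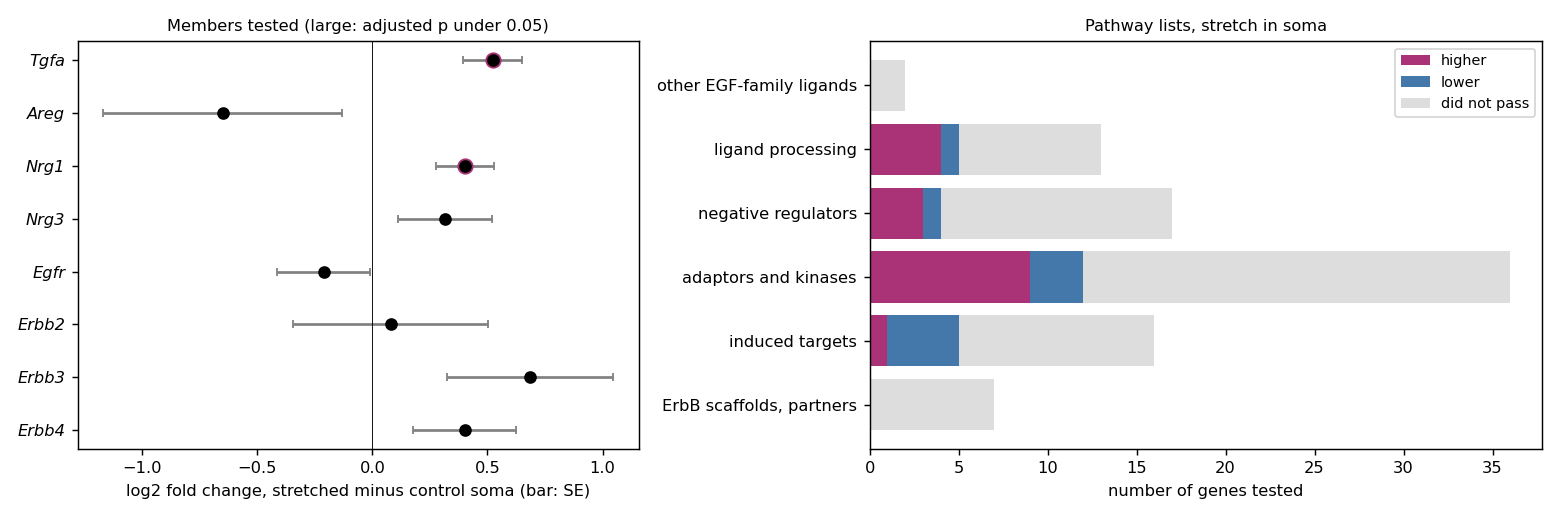
Left, log2 fold change of stretched over control somata for the 8 members tested, with bars for the SE; large points (Tgfa 0.52, Nrg1 0.40) passed at an adjusted p under 0.05. Right, number of genes tested in each of the 6 pathway lists, divided into higher, lower and not passed; adaptors and kinases have the most higher genes (9).

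On Eif2s3y, a gene of the Y chromosome, the soma libraries fell into 2 sets. Set A held control replicates 1, 2 and 3 and stretched replicates 1, 2 and 8 (24.7 to 28.7 CPM), and set B the other 6 libraries (5.39 to 13.2 CPM). What the sets are is not in the labels. Each set held 3 control and 3 stretched libraries. Egfr differed between them with no overlap, from 6.79 to 9.75 CPM in set A and from 4.54 to 6.61 CPM in set B. Such a separation was seen for 3.36% of genes (higher in set A) and 1.69% (lower in set A). The astrocyte genes Aqp4 (365 to 500.3 against 159 to 226 CPM) and Gfap (7556 to 10496 against 3546 to 4436 CPM) were also higher in set A. They were the only ones of the 8 astrocyte markers compared by set, so the list as a whole is not described. Their part in the Egfr level was not tested.

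Within each set the means of Tgfa and Nrg1 were higher in stretched somata. In set A Tgfa was 33.3 ± 0.6 CPM in stretched and 20.2 ± 5.7 CPM in control somata (SD, n = 3 each), and in set B it was 28.5 ± 4.2 and 21.7 ± 3.0 CPM. The log2 fold change of Tgfa was 0.72 in set A (adjusted p = 0.017, edgeR) and 0.37 in set B (adjusted p = 0.29, edgeR). In set A Nrg1 was 40.3 ± 2.5 CPM in stretched and 29.4 ± 3.0 CPM in control somata, and in set B it was 47.7 ± 5.0 and 35.5 ± 7.3 CPM. Nrg1 had a log2 fold change of 0.46 in set A (adjusted p = 0.020, edgeR) and 0.40 in set B (adjusted p = 0.28, edgeR). Set B on its own gave 0 called genes (edgeR), beside 2739 genes with an unadjusted p under 0.05. An interaction of stretch with set was called for 0 of 16751 genes and so for no family member (edgeR, 1247 genes at an unadjusted p under 0.05). With the set as a covariate the adjusted p was 0.0063 for Tgfa and 0.0081 for Nrg1 (edgeR).

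By its values Hbegf was lower in stretched somata of each set. These are the same libraries that took part in its choice, so the sets add no separate evidence. In set A it was 19.8 ± 3.3 CPM in stretched and 29.1 ± 3.5 CPM in control somata (SD, n = 3 each) with no overlap, a separation seen for 21.3% of genes. In set B it was 26.2 ± 7.6 and 44.0 ± 13.3 CPM, with overlap. Nrg3 was 8.25 ± 0.59 CPM in stretched and 5.15 ± 1.46 CPM in control somata of set B with no overlap, as 10.5% of genes, and 5.36 ± 1.03 and 5.497 ± 0.737 CPM in set A.

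**Figure D4:**
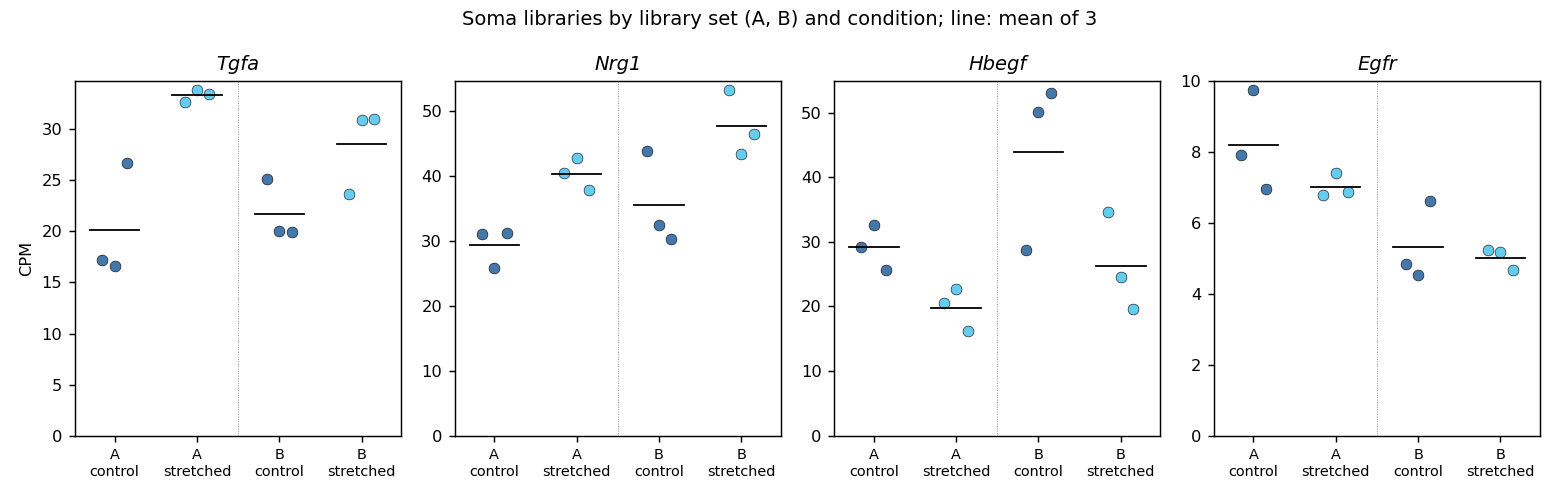
CPM of Tgfa, Nrg1, Hbegf and Egfr in the soma libraries by set (A, B) and condition, 3 libraries each (points), with the mean as a line. Tgfa and Nrg1 means are higher and Hbegf means lower in stretched somata of both sets, and Egfr is higher in set A in either condition.

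The pathway around the family was described by 6 lists with 97 genes, of which 91 were tested for stretch in somata. Of these, 17 were higher and 9 lower, 28.6% beside 25.1% of all genes, and the median log2 fold change was 0.06 beside -0.03 over all genes. Of 13 genes of ligand processing, 4 were higher and 1 was lower, beside 11.2% and 13.9% of all genes. The higher ones were metalloproteases: Adam10 (120 ± 27 against 60.5 ± 20.6 CPM, log2 fold change 0.95, adjusted p = 0.0066, edgeR), Adam9 (0.85, adjusted p = 0.012), Adam19 (0.64, adjusted p = 0.013) and Adam17 (0.41, adjusted p = 0.010). Adam17, the main sheddase of Tgfa and Areg, lies outside the rule for naming genes and was added after its value was seen. Its values did not overlap between the groups, from 23.6 to 29.1 CPM in control and from 31.7 to 40.6 CPM in stretched somata. The same separation was seen for 1.84% of all genes. Cd9, a tetraspanin that binds the Hbegf precursor, was lower (207 ± 37 to 164 ± 14 CPM, log2 fold change -0.38, adjusted p = 0.025, edgeR), and lost its call in 5 of 12 fits that left out 1 library.

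Of 17 negative regulators tested, 3 were higher and 1 was lower, beside 11.2% and 13.9% of all genes. The ubiquitin ligases Cblb (log2 fold change 0.61, adjusted p = 0.013, edgeR) and Cbl (0.50, adjusted p = 0.037), which mark Egfr for degradation, and Lrig2 (0.51, adjusted p = 0.032) were higher. The phosphatase Ptpn1 was lower (-0.44, adjusted p = 0.010, edgeR). Of 36 adaptors and kinases, 9 were higher and 3 lower, beside the same shares. The largest rises were in Shc4, an adaptor (0.78, adjusted p = 0.044, edgeR), the transcription factor Stat5b (0.70, adjusted p = 0.026) and the kinase Braf (0.70, adjusted p = 0.044). The falls were in Map2k2 (-0.94, adjusted p = 0.025, edgeR), Pik3cb (-0.90, adjusted p = 0.041) and Hras (-0.63, adjusted p = 0.027). Of the 12 fits that left out 1 library, Shc4 and Braf lost their calls in 9, Cbl and Pik3cb in 8, Lrig2 and Hras in 6, Map2k2 in 4 and Stat5b in 3.

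Of 16 genes that this pathway is known to induce, 1 was higher and 4 were lower in stretched somata, beside 11.2% and 13.9% of all genes, with a median log2 fold change of -0.26. Egr3, an immediate early transcription factor, was higher (log2 fold change 0.59, adjusted p = 0.018, edgeR). Ier3 (-0.87, adjusted p = 0.016, edgeR), the phosphatase gene Dusp1 (-0.87, adjusted p = 0.025) and the cyclin gene Ccnd1 (-0.55, adjusted p = 0.010) were the largest falls. Dusp1 lost its call in 1 of 12 fits that left out 1 library, that without control soma replicate 5. Of the 19 pathway genes named for stretch in somata, 9 did not pass with the offsets for length and GC content: Adam17, Cd9, Lrig2, Cbl, Shc4, Braf, Hras, Ier3 and Dusp1. Among 7 ErbB scaffolds and partners and 2 other EGF-family ligands none passed. Egf itself averaged 0.790 ± 0.311 CPM in control and 1.23 ± 0.47 CPM in stretched somata (SD, n = 6 each) and had no read in axons.

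In control cultures 88 of the 97 pathway genes were tested between axons and somata, with 1 higher and 19 lower in axons (22.7% called beside 35.3% of all genes) and a median log2 fold change of -1.20 beside -1.40 over all genes. The gene higher in axons was Cd44, a cell surface glycoprotein that can carry Hbegf, with 218 ± 117 CPM in axons (SD, n = 5) and 64.5 ± 9.2 CPM in somata (log2 fold change 1.45, adjusted p = 0.040, edgeR). Cd44 had reads in all 5 control axon libraries, from 76.9 to 389 CPM, and lost its call in 7 of 11 fits that left out 1 library and without the filter (adjusted p = 0.15, edgeR). Nrp1, a semaphorin co-receptor, was lower in axons (105 ± 117 against 513 ± 66 CPM, log2 fold change -2.49, adjusted p = 0.022, edgeR). Sos1 (at least 101-fold lower), Pik3cd (at least 122-fold) and Pik3cb (at least 70.6-fold) of the adaptors and kinases had no read in control axons. Adam19 (at least 202-fold), Adam8 (at least 73.0-fold), Spry1 (at least 62.9-fold) and Egr3 (at least 135-fold) had none either. Furin (0.154 ± 0.332 CPM in axons, 9.85 ± 2.32 CPM in somata) and Cblb (0.00465 ± 0.0104 and 45.9 ± 13.6 CPM) were also called lower. They passed the filter through the somata alone, so no p is given. For stretch in axons 38 pathway genes were tested and 0 passed.

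The genes whose soma levels moved most like those of each member were named, by Pearson's r of the deviations from the group means over 12 soma libraries and 11088 genes. Libraries share depth and set, so these values are descriptions. For Hbegf they were Ociad2 (r = 0.94), Tm4sf1, Tmod1, Paxx and Med22. For Tgfa they were Robo1 (0.93), Kcnq5, Zdhhc23, Galnt1 and Nectin1, and for Nrg1 Fam160a2 (0.95), Lzts1, Atxn1, Marf1 and Tmem151b. For Nrg3 they were Ankrd13a (0.90), Sos2, B4galnt4, Pdzd8 and Tgfb1i1. For Egfr they were Blvrb (0.96), Tssc4, Cyb5rl, Tuba1b and Slc22a4.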

How the data were processed

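Poly(A) RNA was sequenced as read pairs from amplified cDNA of low-input libraries with unique molecular identifiers, per the labels' protocols. The authors deposited whole-number read counts per Ensembl gene for 23 libraries. FastQC 0.11.9, MultiQC 1.12, fastp 0.20.1, STAR 2.7.08a, HTSeq 0.13.5 and the build mm10 are named in the submitters' processing notes. Use of the molecular identifiers, the annotation release and the strand setting are not given in the sources used here. Reads in no gene, in several genes or at several places are kept apart in the deposited files (14.2% to 24.4% of the totals) and stayed out of library sizes. Without strand, overlapping genes cannot be told apart: 4.66% of Nrg1 exon bases overlap Gm26578, 1.82% of those of Tgfa overlap Gm43917 and 0.173% of those of Erbb2 overlap Mien1. Genes with near-identical copies may be undercounted.

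Symbols were matched for 55141 of 55487 identifiers, and exon lengths are from GENCODE M21 (GRCm38). CPM are counts per 1000000 gene counts of a library. Each pair of groups was fitted alone with edgeR 4.0.16 in R 4.3.3 (filterByExpr, TMM, robust quasi-likelihood F test), with Benjamini-Hochberg adjustment over all genes tested and a threshold of 0.05. A SE is the log2 fold change divided by the square root of F. Alternatives were DESeq2 1.42.0, total counts without TMM, no filter, the exact permutation test of log2(CPM + 1), a replicate block, each library left out, and the soma sets divided at the largest gap in log2 CPM of Eif2s3y, as a covariate and alone. Alternatives added after seeing the data were offsets for length and GC content (mgcv 1.9.3), both soma libraries numbered 4 left out, and a test of the stretch effect between sets. On simulated counts for real genes, edgeR recovered 95.7% of 4-fold and 100% of 16-fold changes between somata, 2.17% and 16.1% between control axons and somata, and 0% and 2.38% between axonal groups. These are shares of the changed genes past the filter. Counts were drawn around each gene's mean over both groups, with no change above 16-fold. Genes called between control axons and somata had a larger median absolute log2 fold change, 9.30, so these shares do not cover them.

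Named in full are all members. Of each pathway list and comparison, up to 3 genes with the largest rise and 3 with the largest fall are named, among those past the threshold and at 5 CPM or more on average in a group. Pattern neighbours are the 5 genes with the highest r for members with at least 5 CPM in both soma groups. The members and lists were chosen with earlier results of these data known. No pair of libraries of a group agreed within sampling noise (smallest chi-square per degree of freedom 6.11). Spry3, a listed gene, was not matched. Sequences of Hbegf and Nrg2 are not reported here.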

Additional observations from a re-analysis of the deposited data

Results flagged for a closer look

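Of 31 groups of 5 or 6 libraries with differing values, 12 had 1 library far from the others, by a gap to the nearest library of more than 0.71 (5 libraries) or 0.625 (6 libraries) of the group's range. In 9 of the 12, all in axons, only 1 library of the group had reads, which gives such a gap by construction, so their number is not to be read against chance. These 9 were Tgfa at 439 CPM in stretched axon replicate 1 and 0.0232 CPM in control axon replicate 5, and Nrg3 at 61.0 CPM in stretched axon replicate 6. Nrg1 stood at 18.5 CPM in control axon replicate 3 and 15.5 CPM in stretched axon replicate 8, and Egfr at 19.5 CPM in control axon replicate 2 and 0.122 CPM in stretched axon replicate 2. Areg (1.70 CPM) and Nrg2 (0.0232 CPM) stood apart in control axon replicate 5. Where the reads in these libraries came from was not tested.

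The other 3 were soma libraries, where chance flags about 1 group in 20. Tgfa was lowest in stretched soma replicate 4, at 23.7 CPM beside 30.9 CPM in the nearest library. Nrg1 was highest in control soma replicate 4, at 43.8 CPM beside 32.4 CPM. Erbb3 was highest in control soma replicate 1, at 1.03 CPM beside 0.537 CPM.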

How the results depend on the processing

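Between control axons and somata, DESeq2 called 281 genes higher. Without a filter 10714 genes were called (10589 lower), and by the exact permutation test 8325 (8138 lower). Leaving out 1 library gave 4542 to 8151 genes called (87 to 183 higher, 4449 to 7968 lower), the most without control axon replicate 5. Hbegf turned to -2.26 by the exact permutation test, -2.68 with the replicate block and -0.36 without control axon replicate 1, in a range of -0.36 to 1.06 over fits that left out 1 library.

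For stretch in somata the exact permutation test called 0 genes (0 higher, 0 lower, 0 members, 5908 at an unadjusted p under 0.05), and set B alone 0 genes (0 higher, 0 lower, 0 members). Leaving out 1 library gave 2666 to 6072 genes called (1057 to 2889 higher, 1441 to 3183 lower) and 1 to 2 members, the most genes without control soma replicate 4. The higher genes numbered 1057 to 1143 without control soma replicate 1, 2 or 6 or stretched soma replicate 6, and the lower ones 1441 without control soma replicate 5. With both libraries numbered 4 removed, 2782 genes were higher, and with offsets for length and GC content 1059 were higher and 1 member passed. Erbb2 turned to -0.054 with the set as covariate, -0.57 in set B and -0.024 without both libraries numbered 4. Leaving out 1 library gave -0.19 to 0.24 for Erbb2, with -0.07, -0.10, -0.19 and -0.07 without control soma replicates 1 and 4 and stretched soma replicates 2 and 8. Nrg3 turned to -0.037 in set A. Of the 19 pathway genes named in somata, 4 did not pass without a filter and 1, Pik3cb, with total counts alone. In set A 7 of them did not pass and in set B 0 passed. For stretch in axons DESeq2 called 18 genes (15 higher, 3 lower). The causes were not tested.

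Replicate numbers are shared between groups. Same-numbered soma libraries, which also lay in the same set, had correlations of 0.0906 to 0.2328. Their mean was 0.189, beside -0.0301 for different numbers, and 1 of 5 pairs correlated best with its own number. Between control axons and somata the means were 0.0504 and -0.00771 (2 of 4 pairs best with their own number). Between axonal groups they were 0.0398 and -0.00359 (2 of 3). Whether the numbers mark pairs is not in the labels, and the main fits do not use them. The replicate block called 3227 genes in somata (1552 higher, 1675 lower), with 0.58 for Tgfa and 0.44 for Nrg1. It ended the calls of Shc4, Pik3cb and Hras in somata and of Cd44 (adjusted p = 0.72, edgeR) and Nrp1 (adjusted p = 0.077, edgeR) between control axons and somata, and of no other gene named. With the block 22 genes were higher in control axons than somata, and 0 were called for stretch in axons. Counting a gene as read from 3 counts in place of 1 left 4 members in control axons and 4 in stretched axons.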
